A study of Mus musculus with 22 samples.

Results

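The Myc, Max and Mxd network is described here in mouse bladder organoids through 8 genes: Myc, Mycn, Max, Mxd1, Mxd3, Mxd4, Mnt and Mlx. They were taken by symbol from a fixed list, and all 8 are among the 24421 genes of the count files. The 22 libraries came from organoids, epithelial cultures grown in 3 dimensions, that were wild type (WT) or knockout (KO) for Arid1a, which encodes a subunit of the BAF chromatin remodelling complex. Of these, 18 came from primary urothelial organoids: total RNA, and the subpolysome and polysome fractions of a sucrose gradient, with 3 WT and 3 KO libraries of each. The polysome fraction holds mRNAs that carry several ribosomes, and the subpolysome fraction those with few or none. The other 4 libraries held total RNA of isogenic cancer organoids of the bladder, with 2 under the WT label and 2 under the KO label. How Arid1a was deleted, and whether replicates came from separate animals or cultures, is not given in the sources used here. The p-values therefore rest on differences among libraries that could be technical repeats.

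Myc and its relatives Mycn and Mycl are transcription factors that bind the E-box letters CACGTG once paired with Max, and they raise genes of ribosome production, nucleotide synthesis and growth. Mxd1, Mxd3, Mxd4, Mxi1 and Mnt also pair with Max, occupy the same letters and bring the Sin3 and histone deacetylase corepressors, so they oppose Myc. Mlx is a Max-like partner for the glucose-sensing factors Mlxip and Mlxipl and for some repressors, and Mga is a large Max-binding repressor.

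Promoter windows of Mxd4, Mnt, Mlx and Mycn are shown because the letters that the network's own dimers bind, or that E2F factors bind, lie in them. The sequences are RefSeq windows of build GRCm38.p6, limited to the bases before the annotated transcript start, 5′ to 3′, and the capitals mark the matched letters. RefSeq windows were found for 7 of the 8 members (not for Myc), and both strands of the 250 bases before each start were searched. The E-box CACGTG was in 3 of the 7, in Mxd4 at position -219, in Mnt at -123 and in Mlx at -40, counted from the RefSeq start, against 6.02% of all 32851 windows. The E2F letters TTTGGCGC were in Mycn, at -183 and -168, while 1.30% of all windows held either these letters or TTTCCCGC. A match is a run of letters and was not measured as a binding site. The Mxd4 window is chr5:34187721-34187960 on the minus strand, the Mnt window chr11:74830674-74830919 on the plus strand, the Mlx window chr11:101087040-101087276 on the plus strand and the Mycn window chr12:12941915-12942086 on the minus strand.
Mxd4: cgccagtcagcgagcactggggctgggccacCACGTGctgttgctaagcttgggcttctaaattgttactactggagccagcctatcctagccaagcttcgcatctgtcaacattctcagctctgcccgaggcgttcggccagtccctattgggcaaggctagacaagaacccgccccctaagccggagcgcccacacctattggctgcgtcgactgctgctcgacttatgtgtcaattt
Mnt: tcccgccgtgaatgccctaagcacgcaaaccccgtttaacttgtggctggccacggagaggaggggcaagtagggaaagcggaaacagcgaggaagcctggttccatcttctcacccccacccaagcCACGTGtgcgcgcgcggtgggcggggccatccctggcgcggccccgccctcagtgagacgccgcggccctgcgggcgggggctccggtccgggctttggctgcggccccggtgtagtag
Mlx: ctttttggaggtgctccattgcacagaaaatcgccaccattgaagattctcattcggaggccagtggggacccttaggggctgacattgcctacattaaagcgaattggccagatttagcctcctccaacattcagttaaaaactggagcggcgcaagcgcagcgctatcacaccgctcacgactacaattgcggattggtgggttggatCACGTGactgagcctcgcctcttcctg
Mycn: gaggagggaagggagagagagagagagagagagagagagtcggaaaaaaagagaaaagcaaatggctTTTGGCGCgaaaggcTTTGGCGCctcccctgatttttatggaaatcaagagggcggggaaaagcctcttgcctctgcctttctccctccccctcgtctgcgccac

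The unit of level is CPM, a gene's counts relative to its library's size after TMM scaling over all 22 libraries, whose totals ran from 39245248 to 76594655 counts. Arid1a, the targeted gene, was called lower in KO total RNA, at 75.2, 75.3 and 84.1 CPM where WT had 114, 131 and 117. In polysomes it was 34.7, 24.9 and 21.7 CPM in WT and 23.7, 19.3 and 13.9 in KO, with no call, and in subpolysomes the KO libraries at 62.1 to 75.0 were not below the WT ones at 55.5 to 62.3. In the cancer libraries Arid1a went against the labels: 66.5 and 196 CPM in those labelled WT, 174 and 56.2 in those labelled KO. Every cancer comparison by genotype below is therefore one between labels. Urothelial markers were present in all groups, with Upk2 and Upk3a at 0 in the 4 cancer libraries, while 6 fibroblast markers summed to at most 12.04 CPM, 6 immune markers to at most 28.9 and 4 erythroid markers to 0.

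Compared per kilobase of the longest annotated coding transcript, Myc led in WT total RNA at 72.3 ± 1.79 CPM per kb (SD, n = 3). Max followed at 45.5 ± 2.36, Mlx at 18.1 ± 0.878, Mnt at 10.6 ± 0.181, Mxd4 at 7.40 ± 0.275, Mxd1 at 5.28 ± 0.357 and Mxd3 at 0.585 ± 0.371. The libraries of neighbouring members in this order did not overlap. With merged exon lengths in place of transcript lengths, Mxd1 came just above Mxd4, at 3.48 against 3.38 CPM per kb. In KO total RNA Mxd1 stood above Mxd4, at 9.48 ± 0.786 against 6.04 ± 0.199, and its libraries overlapped those of Mnt at 9.99 ± 0.502. With merged exon lengths Mxd1 and Mnt did not overlap there, with means of 6.25 and 9.91 CPM per kb. In the cancer libraries labelled WT, Mxd3 at 6.87 ± 1.89 and Mnt at 6.37 ± 2.01 CPM per kb (SD, n = 2) overlapped, and both lay above Mxd1 at 2.41 ± 0.248 and Mxd4 at 1.59 ± 0.0366. With merged exon lengths Mnt lay above Mxd3 in these libraries, with means of 6.32 and 3.85 CPM per kb. The make-up of the Mxd transcripts differed accordingly. On this per-kilobase scale Mxd4 was 51.5% to 58.4% of the summed Mxd1, Mxd3 and Mxd4 in WT total RNA and 33.7% to 37.0% in KO. Mxd3 was 48.7% to 78.5% of that sum across the 4 cancer libraries. These shares depend on the length used. With merged exon lengths the means in WT total RNA were 3.48 for Mxd1, 3.38 for Mxd4 and 0.328 for Mxd3. Myc over the sum of Mxd1, Mxd3, Mxd4 and Mnt was 2.98 to 3.12 in WT total RNA, 2.26 to 2.31 in KO and 3.49 to 4.72 in cancer, as a ratio of transcripts and not of proteins. Neither sum holds Mxi1, a Max-binding repressor outside the 8 genes. Mxi1 was at 30.4 ± 1.31 CPM per kb in WT total RNA and 31.8 ± 1.45 in KO (SD, n = 3), above each of the summed genes. In cancer it was 7.36 ± 2.37 under the WT label and 6.74 ± 1.39 under the KO label (SD, n = 2). With Mxi1 in the sum, the Myc ratio would be lower in every group.

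**Figure D1:**
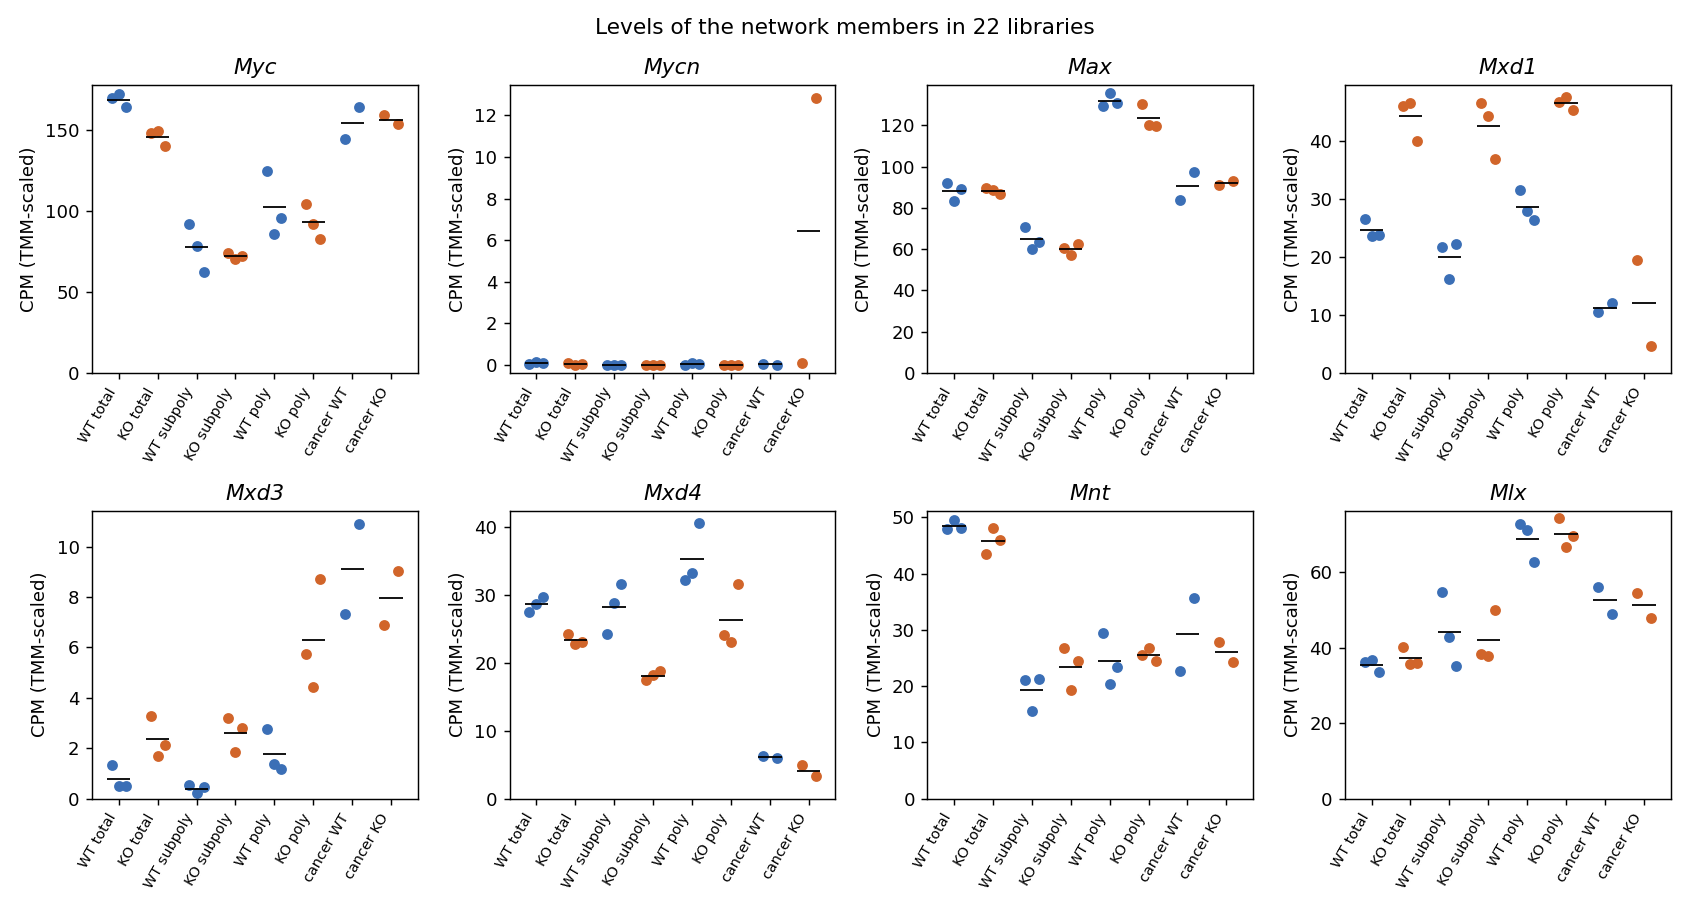
Level of each member (CPM with TMM factors, linear axes) in each of the 22 libraries, by group. Blue points are libraries labelled WT, orange points those labelled KO, and lines are group means. Mxd1 and Mxd3 sit higher in KO than in WT in each kind of primary RNA, and Mycn stands out in 1 cancer library at 12.8 CPM.

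Loss of Arid1a in the primary organoids went with higher Mxd1 and Mxd3, lower Mxd4 and slightly lower Myc in total RNA. Of the 7 members tested, 4 passed, 2 higher and 2 lower. That share stands against 53.2% of the 13198 genes tested (27% higher and 26.3% lower), so it is near the background. Mycn had too few counts to be tested.

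Myc itself was at 170, 173 and 164 CPM in WT total RNA and at 148, 149 and 140 in KO. The genotypes did not overlap, yet the difference was small, with log2 fold change -0.18 (SE 0.04, adjusted p = 0.00308, edgeR quasi-likelihood test with Benjamini-Hochberg adjustment, as in all tests below). In a fit on all 18 primary libraries the Myc call was lost, with adjusted p = 0.230. In polysomes Myc was 125, 86.0 and 96.0 CPM in WT against 104, 92.2 and 82.8 in KO, and the difference of -0.11 (SE 0.15, adjusted p = 0.661) did not pass. The subpolysome libraries overlapped as well, at 92.1, 78.4 and 62.3 CPM in WT and 74.3, 70.4 and 72.5 in KO (log2 fold change -0.09, SE 0.13, adjusted p = 0.695).

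Mxd1, a repressor usually linked to differentiation, was at 26.5, 23.6 and 23.7 CPM in WT total RNA and at 46.1, 46.6 and 40.0 in KO. All KO libraries lay above all WT libraries, a log2 fold change of 0.87 (SE 0.07, adjusted p = 1.64e-06). Of 13 urothelial markers, 9 were higher and 3 lower in the same comparison (median 0.48). Over all genes 53.2% were called there, 27% higher and 26.3% lower (median 0.00). The summed level of these markers was 11042 to 12748 CPM in WT and 12148 to 12724 in KO. Their part in the Mxd1 and Mxd4 results was not tested. The same order of genotypes held for Mxd1 in polysomes, with 31.6, 27.9 and 26.4 CPM in WT and 46.8, 47.5 and 45.3 in KO (log2 fold change 0.73, SE 0.13, adjusted p = 0.000364). In subpolysomes Mxd1 was 21.6, 16.2 and 22.2 CPM in WT and 46.6, 44.4 and 36.9 in KO (log2 fold change 1.11, SE 0.15, adjusted p = 4.08e-06).

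Mxd3, the Mxd member expressed in cycling cells, was the lowest of the tested members in total RNA of the primary organoids. It was at 1.34, 0.481 and 0.504 CPM in WT total RNA against 3.29, 1.68 and 2.13 in KO, without overlap (log2 fold change 1.62, SE 0.38, adjusted p = 0.00352). In polysomes WT libraries held 2.76, 1.39 and 1.17 CPM and KO libraries 5.75, 4.43 and 8.71, a log2 fold change of 1.84 (SE 0.30, adjusted p = 0.000156). Subpolysome Mxd3 was 0.534, 0.208 and 0.442 CPM in WT against 3.19, 1.84 and 2.79 in KO, the largest fold among the members there, at 2.72 on the log2 scale (SE 0.65, adjusted p = 0.00302). That fold rests on 18, 6 and 13 counts in the WT libraries. The 9 proliferation markers moved with it: all 9 were called higher in KO total RNA, where 27% of all genes were. The summed level of these markers was 125 to 162 CPM in WT and 264 to 366 in KO. Their part in the Mxd3 result was not tested.

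Mxd4, a repressor associated with quiescent and differentiating cells, moved the opposite way. It was at 27.6, 28.7 and 29.7 CPM in WT total RNA and at 24.3, 22.8 and 23.1 in KO (log2 fold change -0.27, SE 0.05, adjusted p = 0.00165), with no overlap. The call was lost in the fit on all 18 primary libraries, with adjusted p = 0.0800. Polysome Mxd4 was 32.2, 33.3 and 40.6 CPM in WT and 24.1, 23.0 and 31.6 in KO. Its log2 fold change of -0.40 (SE 0.15, adjusted p = 0.0492) lay at the threshold. It missed it under RLE factors (adjusted p = 0.0537), under library totals (0.0814) and without any 1 of 5 of the 6 libraries (0.0547 to 0.225), KO replicate 3 being the exception. The polysome call held with no filter, by DESeq2, with the replicate number as a block and in the fit on all 18 primary libraries. In subpolysomes the decrease was clearer, from 24.3, 28.9 and 31.7 CPM in WT to 17.4, 18.2 and 18.8 in KO (log2 fold change -0.62, SE 0.15, adjusted p = 0.00257).

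Of the 7 members, 3 passed in polysomes (2 higher, 1 lower), where 28.8% of genes did (14.9% higher and 13.8% lower). The same 3 passed in subpolysomes, with 22% of genes called (11% higher and 11% lower). Max, the shared partner, did not pass in any kind of RNA: it was at 92.3, 83.3 and 89.4 CPM in WT total RNA against 89.6, 88.9 and 86.7 in KO (log2 fold change 0.03, SE 0.05, adjusted p = 0.662). Mnt, the broadly expressed Max-binding repressor, was 48.0, 49.5 and 48.1 CPM in WT and 43.5, 48.1 and 46.1 in KO (log2 fold change -0.05, SE 0.05, adjusted p = 0.383). Mlx was 36.3, 36.7 and 33.6 CPM in WT and 40.1, 35.7 and 35.9 in KO (log2 fold change 0.09, SE 0.06, adjusted p = 0.213). In polysomes the KO minus WT log2 differences were -0.07 (SE 0.12) for Max, 0.10 (SE 0.15) for Mnt and 0.05 (SE 0.13) for Mlx. In subpolysomes they were -0.10 (SE 0.11), 0.29 (SE 0.17) and -0.07 (SE 0.15), in the same order. A p above the threshold does not show that these levels were equal.

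**Figure D2:**
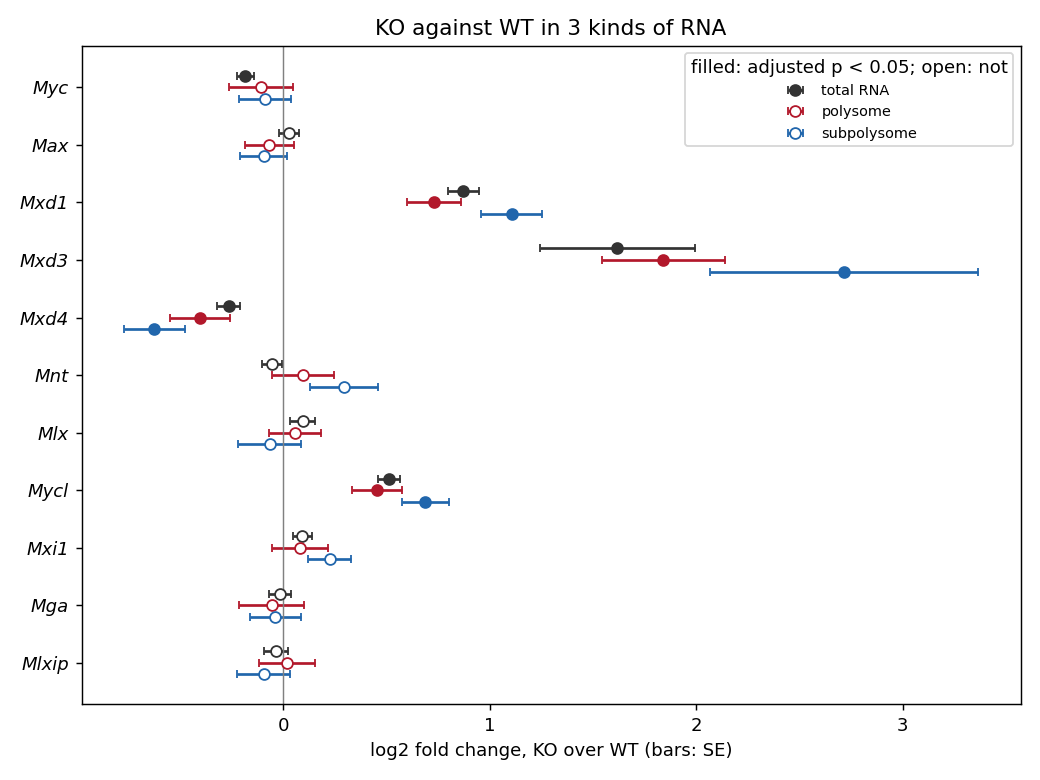
Log2 fold change of KO over WT (x axis) for the 7 tested members and 4 other network genes in total RNA, polysomes and subpolysomes, 3 libraries per group. Bars are SE, and filled points passed adjusted p of 0.05. Mxd1, Mxd3 and Mycl lie to the right and Mxd4 to the left in all 3 kinds of RNA.

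The network's other genes add 1 more difference. Mycl, the third Myc family gene, was at 91.6, 94.2 and 88.2 CPM in WT total RNA against 118, 130 and 135 in KO (log2 fold change 0.51, SE 0.05, adjusted p = 8.15e-06). It was also called higher in KO polysomes (0.46, SE 0.12, adjusted p = 0.0091), though not without WT replicate 2 (adjusted p = 0.0535), and in KO subpolysomes (0.69, SE 0.11, adjusted p = 5.86e-05). Mxi1, another Max-binding repressor, had a log2 fold change of 0.09 (SE 0.05, adjusted p = 0.12) in total RNA, and Mga -0.02 (SE 0.05), Mlxip -0.03 (SE 0.06) and the very low Mlxipl 1.13 (SE 0.62) did not pass either.

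Genes that textbooks place downstream of Myc moved in both directions in KO total RNA. Of 37 Myc-activated genes, 15 were higher and 5 lower, with a median log2 fold change of 0.07 against 0.00 over all genes. With 53.2% of all genes called in this comparison (27% higher and 26.3% lower), 20 of 37 called in either direction is near the background. The split of 15 higher and 5 lower leaned to higher, where all genes split about evenly. Odc1, the rate-limiting enzyme of polyamine synthesis, rose from 54.6 ± 3.15 to 140 ± 14.2 CPM (SD, n = 3; log2 fold change 1.38). Hk2, which starts glycolysis, rose by 0.89 on the log2 scale, whereas Cdk4, a kinase of the cell cycle's first gap phase, had a log2 fold change of -0.33. Of 8 Myc-repressed genes 3 were higher and 4 lower, with a median of -0.09, beside the same background. The cell cycle inhibitors Cdkn1a and Cdkn2b were lower (log2 fold changes -0.59 and -0.98), and Ndrg2, a stress and differentiation gene, was higher by 2.63. Both lists thus held members called in each direction.

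The counts of the next lists stand beside the same 53.2% of genes called. Of 11 coactivators and partners of Myc, 4 were higher and 2 lower, the histone acetyltransferase Kat5 (0.24), the chromatin reader subunit Wdr5 (0.15) and Ep400 (0.19) having the smallest p. Of 9 Mxd corepressor genes 1 was higher and 2 were lower, among them the deacetylase Hdac2 (-0.35) and the scaffold Sin3a (-0.12), with Rbbp7 (0.11) higher. Of 9 genes that set Myc protein stability 5 were higher and 2 lower, led by the kinase Aurka (1.60), itself a cell cycle gene, the deubiquitinase Usp28 (0.39) and the kinase Gsk3b (0.20). Of 5 tested Mlxip and Mlxipl targets 2 were higher, the fatty acid elongase Elovl6 (0.72) and Txnip (0.20), an inhibitor of thioredoxin. All these values are log2 fold changes of KO over WT in total RNA.

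In the gradient, Max, Mxd3 and Mlx stood higher in polysomes than in subpolysomes in both genotypes, relative to other mRNAs. Of the 7 members 4 passed in WT, all higher, where 63.7% of genes passed (32.8% higher and 30.9% lower). In KO 4 passed as well, all higher, against 61.6% of genes (31.7% higher and 29.9% lower). Max was at 130, 136 and 131 CPM in WT polysomes and 70.6, 60.1 and 63.5 in WT subpolysomes (log2 ratio 0.96, SE 0.11, adjusted p = 9.71e-08). In KO it was at 131, 120 and 120 against 60.4, 57.2 and 62.6 CPM (log2 ratio 1.00, SE 0.11, adjusted p = 6.31e-08). The polysome libraries of Max lay above all its subpolysome libraries in each genotype.

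Mlx was at 72.9, 71.3 and 62.6 CPM in WT polysomes and 54.9, 42.7 and 35.2 in WT subpolysomes (log2 ratio 0.57, SE 0.15, adjusted p = 0.00193), and its KO ratio was 0.71 (SE 0.15, adjusted p = 0.000294). For Mxd3 the log2 ratio was 2.08 in WT (SE 0.44, adjusted p = 0.000301) and 1.24 in KO (SE 0.37, adjusted p = 0.00602), the latter falling to 0.93 (adjusted p = 0.0565) without KO polysome replicate 3. Mxd1 passed in WT (0.45, SE 0.14, adjusted p = 0.00741) and not in KO (0.09, SE 0.14, adjusted p = 0.601). Mxd4 passed in KO (0.50, SE 0.15, adjusted p = 0.0062) and not in WT (0.26, SE 0.15, adjusted p = 0.127), and its KO call was lost without KO polysome replicate 3 (0.34, adjusted p = 0.0503). Mnt passed in neither, with log2 ratios of 0.27 (SE 0.16) and 0.09 (SE 0.16).

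Myc had log2 polysome to subpolysome ratios of 0.33 in WT (SE 0.15, adjusted p = 0.0553) and 0.32 in KO (SE 0.15, adjusted p = 0.0633), just short of the threshold. With the replicate number as a block, since same-numbered libraries deviated together in these fractions, Myc passed in both (adjusted p = 0.0086 in WT and 0.0119 in KO). The test of the difference between genotypes in this ratio called 0 of the 7 members by edgeR (0 at an unadjusted p under 0.05, and 0 by DESeq2). With the replicate block 0 were called as well, and 1, Mxd1, had an unadjusted p under 0.05 (adjusted p = 0.594 by edgeR). It called 0.00747% of genes (1 of 13392, or 12 with the replicate block). The difference of KO and WT log2 ratios for Mxd1 was -0.36 (SE 0.19, adjusted p = 0.902), so its call in 1 genotype only is not shown to be a difference. For Mxd3 it was -0.84 (SE 0.57, adjusted p = 0.92) and for Mxd4 0.24 (SE 0.21, adjusted p = 0.944). Taken over library totals without TMM factors, the median gene shifted by 0.84 in WT and 0.89 in KO, and all 7 members then passed as higher. The share of called genes that were higher went from 51.6% to 83.1% in WT and from 51.4% to 85.9% in KO, so the ratios above hold only relative to other mRNAs.

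Corepressor genes of the Mxd proteins were higher in polysomes than in subpolysomes in 6 of 9 and lower in 2 in WT, with a median log2 ratio of 1.43 against 0.01 over all genes. The background there was 63.7% of genes called, 32.8% higher and 30.9% lower. Rbbp7 (2.00) and Rbbp4 (1.70), histone-binding subunits, and Hdac2 (1.53) had the smallest p. Of 37 Myc-activated genes 17 were higher and 11 lower, with a median of 0.11, led by Phb (2.17) and Ccnd2 (1.45) above and Hspe1 (-1.50), a mitochondrial chaperonin gene, below. KO gave 6 of 9 corepressor genes higher and 2 lower (median 1.45), beside 61.6% of genes called.

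Against total RNA the result split by member. In WT polysomes 5 of 7 passed, 3 higher and 2 lower, beside 67.9% of genes (33.1% higher and 34.8% lower). KO polysomes gave 5 of 7 too, 3 higher and 2 lower, beside 66.1% of genes (32.7% higher and 33.4% lower). Myc was lower in polysomes than in total RNA, with log2 ratios of -0.76 in WT (SE 0.12, adjusted p = 3.28e-05) and -0.66 in KO (SE 0.12, adjusted p = 0.000144). Mnt was lower as well, by log2 ratios of -1.03 (SE 0.11, adjusted p = 4.82e-07) and -0.85 (SE 0.11, adjusted p = 4.34e-06), its polysome libraries at 20.4 to 29.4 CPM lying below its total RNA libraries at 43.5 to 49.5.

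Max (0.54 in WT and 0.47 in KO), Mlx (0.92 and 0.91) and Mxd3 (1.15 and 1.40) were called higher in polysomes than in total RNA in both genotypes. The Mxd3 call in WT was lost without WT total RNA replicate 2 or 3 or WT polysome replicate 1 (adjusted p = 0.0920 to 0.195). Among the other network genes, Mga was lower in polysomes than in subpolysomes (-1.24 in both genotypes, SE 0.15) and than in total RNA (-0.93 and -0.94, SE 0.12). Under library totals its KO ratio to subpolysomes shrank to -0.35 and the call was lost (adjusted p = 0.0560 by edgeR). The WT call held under every alternative. Mlxip was lower than in total RNA (-0.81 in WT and -0.73 in KO, SE 0.10), and Mycl was higher than in subpolysomes (0.58 in WT and 0.36 in KO). Mlxipl, at most 1.37 CPM in any library, was lower in polysomes than in subpolysomes (-2.26 with SE 0.88 in WT, -2.51 with SE 0.84 in KO). Mxi1 was called lower in polysomes than in total RNA (-0.25 with adjusted p = 0.0381 in WT, -0.23 with adjusted p = 0.0494 in KO), calls that RLE factors ended (0.0525 and 0.0552). The genotype difference in the polysome to total RNA ratio called 0 members and 0% of genes by edgeR, and 0 genes by DESeq2. At an unadjusted p under 0.05 edgeR gave 263 genes and 0 members.

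**Figure D3:**
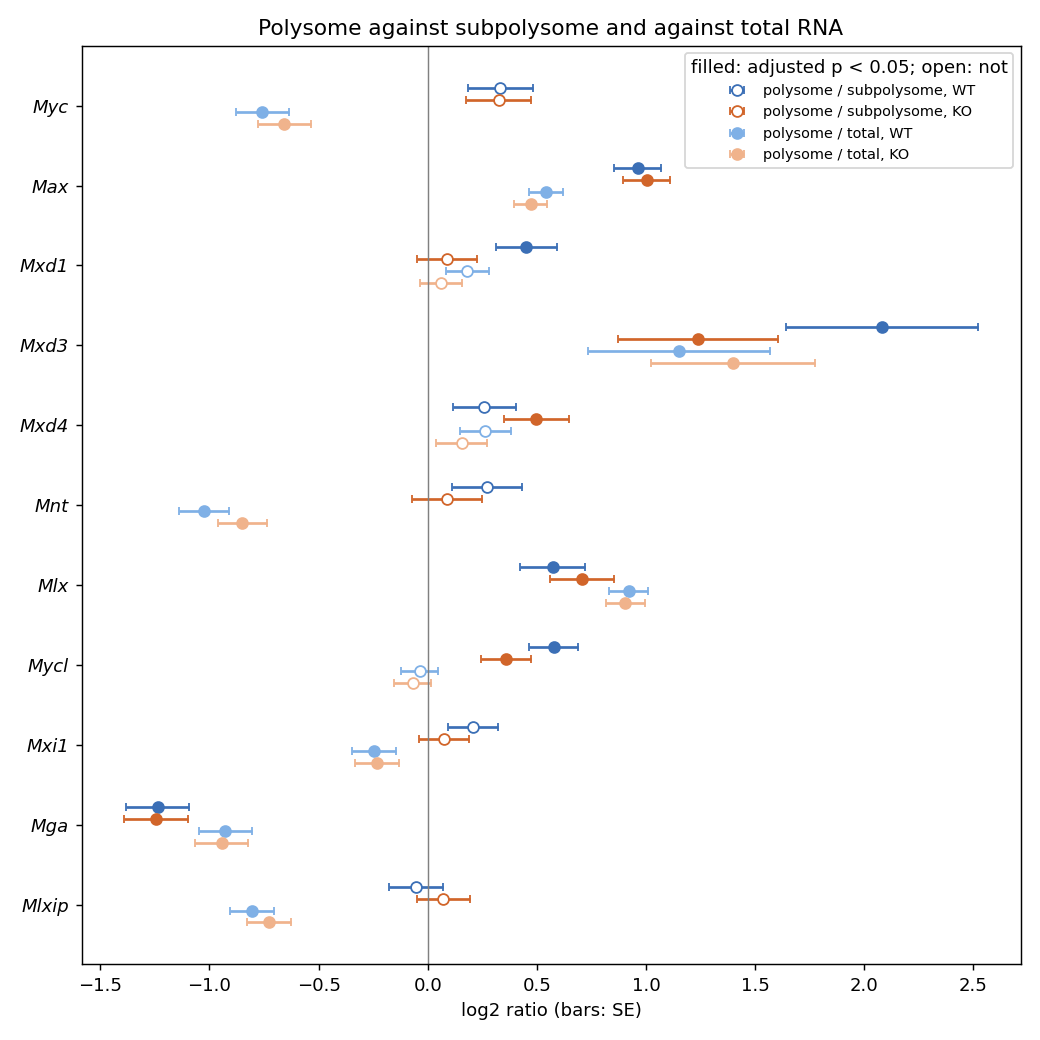
Log2 ratio (x axis) of polysome to subpolysome and of polysome to total RNA, in WT and in KO, for the 7 tested members and 4 other network genes, 3 libraries per group. Bars are SE and filled points passed adjusted p of 0.05. Max, Mlx and Mxd3 lie right of 0 in all 4 ratios, while Myc and Mnt lie left of 0 against total RNA.

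In the cancer organoids Myc lay within the range of the primary libraries and Max did not pass, while Mxd3 and Mlx were higher and Mxd1, Mxd4 and Mnt lower. Of the 7 members 5 passed, 2 higher and 3 lower, where 77.8% of genes did (38.8% higher and 39% lower). Cancer and primary organoids also differ in everything else between both sets of libraries, including the submitters' notes on processing, and these cannot be told apart. In bulk RNA, fewer cells of a type and less RNA per cell cannot be told apart either.

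Myc was at 145 and 164 CPM in the cancer libraries labelled WT and 159 and 154 in those labelled KO, which overlaps the primary total RNA range of 140 to 173 (log2 fold change -0.02, SE 0.05, adjusted p = 0.678). Max, at 84.0, 97.6, 91.1 and 93.2 CPM, did not pass either (0.04, SE 0.06, adjusted p = 0.55). Mlx rose to 56.2, 48.9, 54.7 and 47.9 CPM, all above the primary total RNA libraries (0.50, SE 0.07, adjusted p = 0.000267).

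Mxd4 fell most among the members, to 6.25 and 6.05 CPM in the libraries labelled WT and 4.89 and 3.31 in those labelled KO (log2 fold change -2.38, SE 0.12, adjusted p = 4.29e-07). Mxd1 fell to 10.4 and 12.1 CPM under the WT label and to 19.5 and 4.69 under the KO label (-1.51, SE 0.34, adjusted p = 0.00368), so the cancer libraries labelled KO bracketed the others. Mnt was 22.7, 35.8, 27.8 and 24.3 CPM, below every primary total RNA library (-0.78, SE 0.12, adjusted p = 0.000397). Mxd3 rose to 7.34, 10.9, 6.88 and 9.03 CPM (2.63, SE 0.35, adjusted p = 0.000175), above every primary total RNA library. The 9 proliferation markers were all higher too, with sums of 3023 to 3346 CPM in cancer, and their part in the Mxd3 result was not tested. Of the 13 urothelial markers 9 were lower and 2 higher (median -2.24), with a summed level of 10774 to 16069 CPM in cancer, and their part in the changes of the members was not tested. Leaving out any 1 of the 10 libraries kept the count of called members at 5.

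Mycn separated 1 cancer library from all others. It had 810 counts (exact Poisson 95% interval 755 to 868, covering counting error only), or 12.8 CPM, in the cancer library labelled KO, replicate 2. The other cancer libraries had 4, 1 and 0 counts. Over the remaining 21 libraries no count exceeded 8, and 12 libraries had none. The same library had the lowest Mxd1, Mxd4 and Mycl (1.2 CPM) of the 4 cancer libraries and an Arid1a level of 56.2 CPM. Low Mycl was not particular to it. Replicate 1 under the WT label had Mycl at 1.84 CPM and was likewise the lower of its label in Arid1a. The labels call the cancer organoids isogenic, and whether the library with 810 Mycn counts comes from the same line as the other 3 was not tested. With so few counts elsewhere Mycn did not pass the filter of the main fits, and its values are given without a test.

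Mycl, Mxi1, Mga and Mlxip also differed between cancer and primary organoids. Mycl was at 1.84 and 7.71 CPM under the WT label and 6.55 and 1.2 under the KO label, against 88.2 to 135 in primary total RNA (log2 fold change -4.67, SE 0.58, adjusted p = 0.000111). Mxi1 was lower (-2.15, SE 0.15, adjusted p = 2.81e-06), Mga higher (1.49, SE 0.10, adjusted p = 2.13e-06) and Mlxip slightly lower (-0.26, SE 0.08, adjusted p = 0.0173).

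The Myc-activated list was higher in cancer in 33 of 37 genes and lower in 1, with a median log2 fold change of 1.70 against -0.03 over all genes. All counts of lists between cancer and primary organoids stand beside 77.8% of genes called, 38.8% higher and 39% lower. Cad, which starts pyrimidine synthesis, had a log2 fold change of 2.95, Ddx18, an RNA helicase, 2.52 and Nop56, a ribosome biogenesis factor, 2.40. Of the 8 Myc-repressed genes 7 were lower and 1 higher, with a median of -2.85, including Cdkn2b (-3.64), Cdkn1a (-3.40) and Gadd45a (-2.93), a growth arrest gene. Myc transcript itself did not pass in the same comparison. Of 11 partners and coactivators of Myc 8 were higher and 2 lower, including the helicases Ruvbl1 (2.39) and Ruvbl2 (1.16) above and Zbtb17 (-1.49), which guides Myc to repressed genes, below. Corepressor genes were higher in 7 of 9 and lower in 2, among them Hdac1 (1.46), Sap30 (1.77) and Hdac2 (0.99). Among 9 genes of Myc protein stability 6 were higher and 3 lower, and Skp2 (3.82) and Aurka (3.69) were the highest. Targets of Mlxip and Mlxipl split, with Txnip (-3.99) and Arrdc4 (-2.34) lower and Acaca (2.54), a fatty acid synthesis enzyme, higher.

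**Figure D4:**
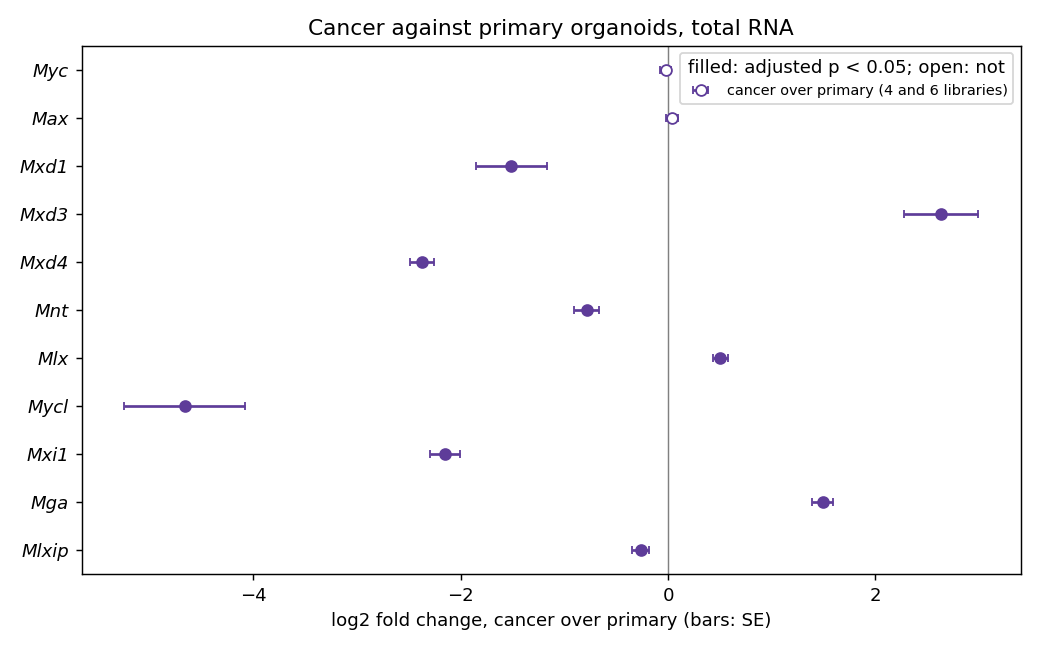
Log2 fold change of cancer (4 libraries) over primary total RNA (6 libraries) for the 7 tested members and 4 other network genes. Bars are SE and filled points passed adjusted p of 0.05. Mxd3, Mlx and Mga lie right of 0, the Myc and Max points lie at 0, and Mycl is farthest left at -4.67.

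Between the cancer labels edgeR called 0 members and 0% of genes (0 members and 96 genes at an unadjusted p under 0.05), while DESeq2 called 10 genes, with 0 members. Max and Mlx differed by 0.03 (SE 0.15) and -0.03 (SE 0.17), and Mxd1 by 0.11 with SE 0.74, each less than its SE. Mxd4 differed most among the 7 tested members, by -0.58 (SE 0.38, adjusted p = 1), and its libraries under the KO label, at 4.89 and 3.31 CPM, lay below those under the WT label, at 6.25 and 6.05. The difference between the KO effects in cancer and in primary organoids called 0 members by edgeR and by DESeq2 and 3.13% of genes by edgeR. At an unadjusted p under 0.05 edgeR gave 1 member, Mxd3 (log2 difference -1.84, SE 0.71, adjusted p = 0.199). Without cancer KO replicate 1, 2 of these 7 members were called, Mxd1 (log2 difference -2.15, adjusted p = 0.0009) and Mxd4 (-0.64, adjusted p = 0.0153), while the genes called rose from 448 to 2376, or 16% of those tested. That fit rests on the library with 810 Mycn counts as the only one labelled KO, assumed to vary like the other groups. Mycn passed the filter there through that library alone, so its value is no test.

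Across the 22 libraries the genes most like each member were found by Pearson's r of log2 CPM, over 9871 genes with a mean of at least 5 CPM. The points share library, kind of RNA and the split between cancer and primary, so r is a description. Mxd4 was closest to Cdkn1a (r = 0.984), the cell cycle inhibitor, then to Ddit4l and Tmem198b. Mxd3 was closest to Fam64a (0.972), then to the thymidine kinase gene Tk1 and the cell cycle kinase gene Cdk1. Mxd1 was closest to Degs2 (0.967), Ttc22 and Syt16, and Max to Arf1 (0.980), Rab7 and Drg1. Myc was closest to Phf2 (0.975), Lnx2 and Dync1li1, Mnt to Ece1 (0.933) and Arhgef11, and Mlx to Lias (0.958), Dtwd1 and Mrpl51. Within the network Mycl went with Mxi1 (0.943), Mxd4 (0.906) and Mxd1 (0.876), and Mga ran opposite to Mxd4 (-0.859).

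**Figure D5:**
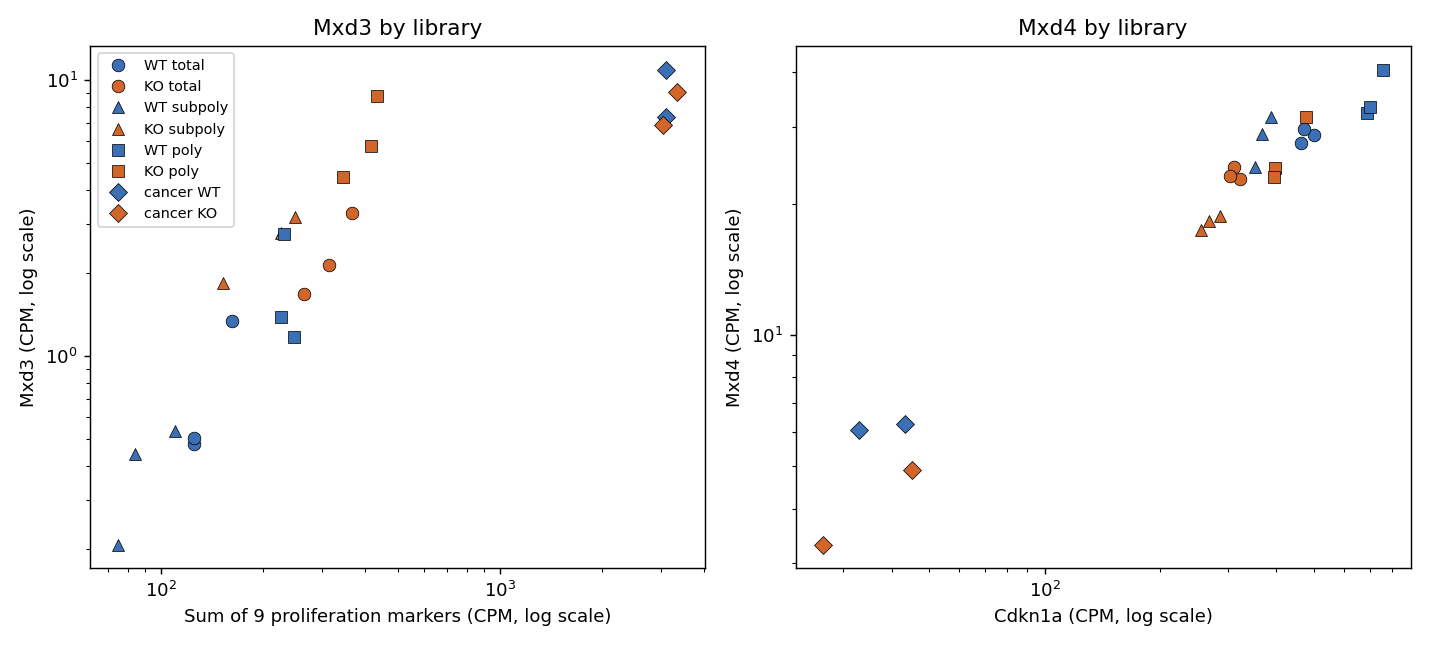
Left, Mxd3 against the summed level of 9 proliferation markers; right, Mxd4 against Cdkn1a, in each of the 22 libraries (CPM, log scales on both axes). Colours give the labelled genotype and shapes the kind of RNA, and the 4 cancer libraries lie apart from the 18 primary ones in both panels.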

How the data were processed

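The authors deposited 1 table of raw read counts per gene for each of the 22 libraries, whole numbers with no normalization. HTSeq and the mm10 genome are named for every library, per the submitters' processing notes, as is Bowtie for the 18 primary ones. The notes name no versions, annotation or strand setting, so a gene and an overlapping antisense gene cannot be told apart. Members and gene lists were chosen with earlier results of these data known.

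Tests used edgeR 4.0.16 under R 4.3.3 (TMM, filterByExpr, quasi-likelihood F test, Benjamini-Hochberg adjustment over all genes tested, threshold 0.05), and tested on simulated data. The SE of a log2 fold change is its size divided by the root of F. Gene models came from GENCODE M21. Replicates of a group differed beyond sampling noise (chi-square 11.9 to 247 times its degrees of freedom). Named were all members, the other network genes, up to 3 called genes of smallest p per list described in a comparison, and the 3 genes most like each member, of which 1 is not reported here. Lists are described by counts and medians.

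Same-numbered libraries deviated together in polysomes (r 0.254 to 0.453) and between polysomes and subpolysomes (0.103 to 0.360). The main tests did not pair them, and the replicate block was run as an alternative. The same r was -0.138 to 0.337 in total RNA, 0.0816 to 0.112 in subpolysomes and 0.0800 to 0.298 between polysomes and total RNA. Alternatives were RLE factors, no filter, DESeq2 1.42.0, the replicate block, leaving out each library and a fit on all 18 primary libraries. Library totals without factors and a crossed block in the cancer libraries were chosen after seeing the data.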

Additional observations from a re-analysis of the deposited data

Results flagged for a closer look

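By label, the KO minus WT difference was compared between cancer and primary organoids in an interaction test over 10 libraries. That test called 7 genes of the Myc target and proliferation lists. As log2 differences, these were E2f2 (-1.50, adjusted p = 0.0496), Cdk1 (-1.50, 0.0381), Aurkb (-1.98, 0.0234), Mcm2 (-1.15, 0.0234) and Mcm5 (-1.81, 0.0280), which drive or copy DNA in dividing cells, and the growth inhibitors Cdkn2b (1.36, 0.0247) and Gadd45a (1.76, 0.0488). Called were 1 of 37 Myc-activated, 2 of 8 Myc-repressed and 4 of 9 proliferation genes, beside 3.13% of the 14305 genes tested. The search also took in the members, the other network genes and the partner, corepressor, Myc stability and Mlxip and Mlxipl target lists, with 0 called. Between the cancer labels alone edgeR called 0% of genes and DESeq2 called 10 genes. The proliferation list had a median log2 fold change of -0.04 there and 1.67 in primary total RNA. For the Myc-repressed list these medians were 0.40 and -0.09. Arid1a went against the cancer labels, and the number of genes called in this comparison ran from 72 to 2376 when 1 library was left out, so these values rest on labels whose part was not tested.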

How the results depend on the processing

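Of 1232 values of single members under an alternative, 1187 kept their side of the threshold, 46 of them changing sign while not called. A further 14 lost a call and 31 gained one, with no called value changing sign. The count of called members fell from 4 to 2 in total RNA KO against WT in the fit on all 18 primary libraries, and rose from 4 to 7 in both polysome to subpolysome comparisons under library totals. Library totals called 9570 genes in WT and 9557 in KO of the 13392 tested. There Mlxip in WT, not called before, changed sign to 0.78. The KO effect in cancer against primary called 0 of 7 tested members. Without cancer KO replicate 1 a single library carried the KO label, and the log2 differences were -2.15 for Mxd1 and -0.64 for Mxd4. Mycn passed the filter there through that library alone and is not counted. Leaving out 1 library gave 2 to 3 members in polysome KO against WT, with 2842 to 3862 of all genes called. Polysomes against subpolysomes gave 4 to 5 in WT (7858 to 8799 genes) and 3 to 5 in KO (7661 to 8386 genes). WT polysomes against total RNA gave 4 to 6 (8497 to 9597 genes). Outside the cancer interaction, where leaving out a cancer library leaves 1 in its group, no other count moved. With the replicate block, 5 members passed in polysomes against subpolysomes in each genotype, Myc being added. Of the 13392 genes tested there, the block called 8785 in WT and 8512 in KO. In WT polysomes against total RNA 6 members passed, beside 9383 of 13507 genes. Mxd4 gained a call there (adjusted p = 0.0363 by edgeR, against 0.0527 in the main fit without the block). The block changed no other call. Numbers crossed in cancer gave 0, same-numbered libraries there having r = -0.413. Over all genes, total RNA calls fell from 7025 of 13198 to 3784 of 13787 on 18 libraries. The genotype by polysome and subpolysome test called 29 genes with no filter and 12 with DESeq2 or the block against 1. The cancer interaction called 1747 with DESeq2 against 448. Depth limits Mycn, Mlxipl and Mxd3, the last at 6 to 18 counts in WT subpolysomes and 38 to 119 in WT total RNA. The cause of these changes was not tested.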
